A study of Mus musculus with 8 samples.

Results

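Polycomb repressive complex 2 (PRC2) is the enzyme complex that places methyl groups on lysine 27 of histone H3 (H3K27), a mark of silenced developmental genes in embryonic stem cells (ESCs). Its core is made of a catalytic subunit, EZH1 or EZH2, with EED, SUZ12 and a histone-binding protein, RBBP4 or RBBP7. Accessory subunits attach to this core and steer it to chromatin: JARID2 and AEBP2 in one form of the complex, and a Polycomb-like protein such as MTF2 or PHF19 in the other. The genes taken by name were *Ezh1*, *Ezh2*, *Eed*, *Suz12*, *Jarid2*, *Mtf2*, *Phf19*, *Aebp2*, *Rbbp4* and *Rbbp7*, which are 10 of 19751 genes named on the array. A probe was assigned to a gene when its RefSeq accession maps to that symbol, which gave 16 probes. All 10 genes and all 16 probes were above background in at least one group of samples and were tested.

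The samples were VV3 ESCs, a male mouse line with a *Vasa*::Venus transgene, a fluorescent reporter of the germ cell gene *Vasa* (*Ddx4*), grown on STO feeder fibroblasts. Cells received siRNA against *L3mbtl2* (*L3mbtl2*-KD, 4 samples) or the non-silencing AllStars siRNA (control, 4 samples). According to the methods, *Vasa*-positive cells were sorted from the knockdown culture, and whether the control cells of these arrays were sorted is not stated, so the knockdown and the sort cannot be told apart. L3MBTL2 belongs to a variant of PRC1, a second Polycomb complex, together with MAX and E2F6, and the comparison shows how transcripts of the PRC2 genes stood when it was depleted. Each sample was hybridised to 1 single-colour array, 4 arrays per slide on 2 slides. Values are log2 intensities minus that of the 75th percentile of the array, so 0 is the level of a probe brighter than 75% of the spots. A value serves to compare arrays for one probe, since probes differ in how strongly they bind.

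The target of the siRNA was lower in every knockdown array. *L3mbtl2* stood at 0.27, -0.18, -0.21 and -0.31 in control replicates 1 to 4 and at -1.45, -1.26, -1.58 and -1.73 in *L3mbtl2*-KD replicates 1 to 4. The groups did not overlap. *L3mbtl2* fell to 37.9% of the control level (limma adjusted p = 0.000945), a log2 fold change of -1.40 with a standard error of 0.15. It was -1.40 within slide 1 and -1.40 within slide 2. *Ddx4*, the gene behind the reporter used for the sort, was 0.85 to 0.99 in control arrays and 3.62 to 3.87 in *L3mbtl2*-KD arrays (log2 fold change 2.83, limma adjusted p = 4.88e-06).

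Of the 10 PRC2 genes, each read on its brightest probe, *Phf19* and *Aebp2* fell and none rose at an adjusted p under 0.05 in limma. Over all 13648 genes tested in the same way, 10.8% fell and 9.35% rose, so 2 falls and 0 rises among 10 genes are near the counts of the genes at large. At an unadjusted p under 0.05 the counts were 3 lower and 0 higher, beside 18.8% and 16.9% of all genes, and the one-way test with adjustment gave 1 lower and 0 higher, beside 8.46% and 7.85%. By probes, 3 of 16 were lower and 0 higher, beside 9.78% lower and 8.56% higher of all probes tested. No gene changed more than 2-fold on any probe, whatever its p, where 5.7% of genes did so at an adjusted p under 0.05. At 1.5-fold and an adjusted p under 0.05 the count was 2 of 10, beside 1714 of 13653 genes. The median log2 fold change of the 10 genes was -0.073, beside -0.011 for all genes tested. The groups did not overlap for 3 genes, *Ezh1*, *Aebp2* and *Phf19*, each lower in *L3mbtl2*-KD ESCs, where 13.8% of all genes had such a pattern downwards and 1726 of 13648 upwards.

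**Figure D1:**
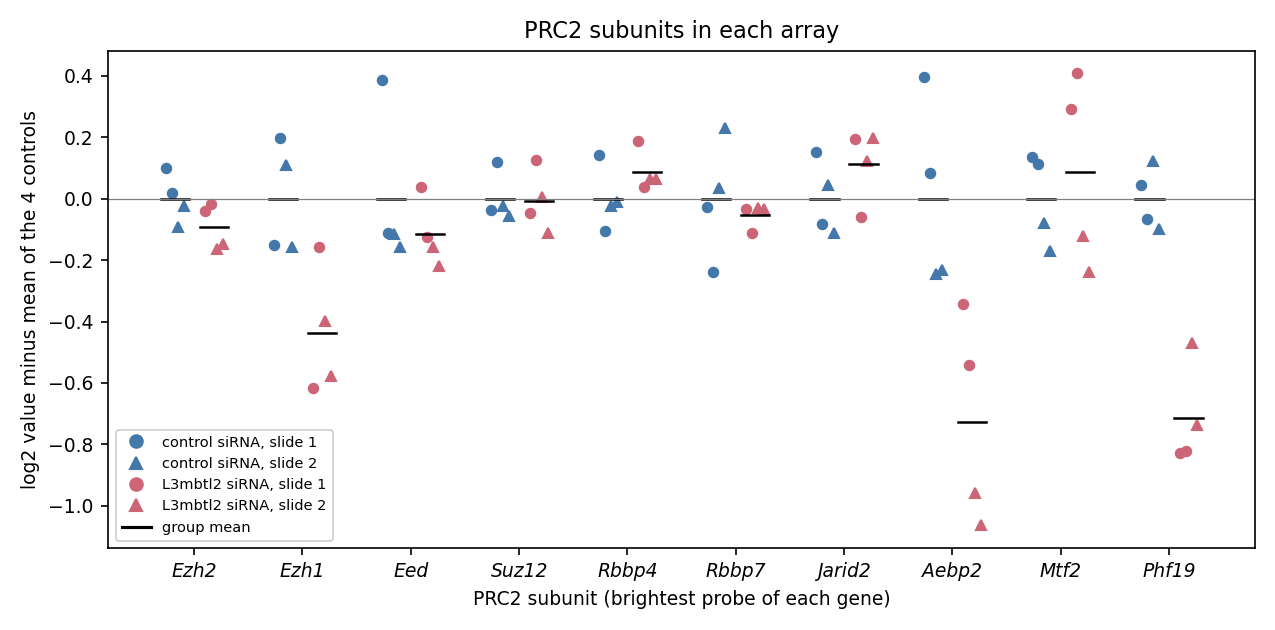
Each point is 1 array, as the log2 value of the brightest probe of a PRC2 gene minus the mean of the 4 controls; blue marks control siRNA, red *L3mbtl2* siRNA, circles slide 1, triangles slide 2, and black lines group means. *Ezh1*, *Aebp2* and *Phf19* have separate groups, with means of -0.44, -0.73 and -0.71 for *L3mbtl2* siRNA, while the groups of the other 7 genes overlap.

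Promoter sequences are shown for the genes whose groups did not overlap and for the members that hold a searched motif. RefSeq windows of 300 bases, from 250 before to 50 after a start site, matched all 10 genes (14 windows, assembly GRCm38.p6), and of several windows of a gene the one richest in G and C is given. Searched on both strands were the E-box CACGTG, the letters bound by MAX dimers, and the E2F-type letters GCGGGAA, with TTCCCGC as their reverse complement, and matches are in capitals.
*Phf19*, chr2:34913927-34914226, minus strand: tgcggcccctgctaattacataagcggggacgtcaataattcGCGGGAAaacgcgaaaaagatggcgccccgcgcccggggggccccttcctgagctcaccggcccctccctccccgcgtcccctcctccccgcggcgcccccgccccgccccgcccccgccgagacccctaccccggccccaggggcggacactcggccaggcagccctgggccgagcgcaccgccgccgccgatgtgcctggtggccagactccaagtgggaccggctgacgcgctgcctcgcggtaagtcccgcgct
*Aebp2*, chr6:140624659-140624958, plus strand: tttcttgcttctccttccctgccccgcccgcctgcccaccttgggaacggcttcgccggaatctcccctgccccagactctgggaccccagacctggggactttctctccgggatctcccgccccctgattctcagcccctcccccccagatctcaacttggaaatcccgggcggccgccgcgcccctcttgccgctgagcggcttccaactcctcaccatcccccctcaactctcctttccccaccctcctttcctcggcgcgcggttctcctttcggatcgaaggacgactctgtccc
*Ezh1*, chr11:101226414-101226713, minus strand: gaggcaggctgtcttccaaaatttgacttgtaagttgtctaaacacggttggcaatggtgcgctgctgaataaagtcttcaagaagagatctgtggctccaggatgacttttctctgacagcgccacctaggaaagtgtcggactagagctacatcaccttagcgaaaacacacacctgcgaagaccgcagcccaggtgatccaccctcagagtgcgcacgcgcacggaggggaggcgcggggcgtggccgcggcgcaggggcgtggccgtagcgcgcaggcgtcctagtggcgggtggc
*Suz12*, chr11:79992856-79993155, plus strand: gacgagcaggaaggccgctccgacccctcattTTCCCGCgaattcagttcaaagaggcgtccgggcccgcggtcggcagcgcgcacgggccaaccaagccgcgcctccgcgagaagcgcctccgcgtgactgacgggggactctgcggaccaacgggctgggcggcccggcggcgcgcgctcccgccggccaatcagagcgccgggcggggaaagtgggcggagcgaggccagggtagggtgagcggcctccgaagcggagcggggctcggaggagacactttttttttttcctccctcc
*Rbbp4*, chr4:129335321-129335620, minus strand: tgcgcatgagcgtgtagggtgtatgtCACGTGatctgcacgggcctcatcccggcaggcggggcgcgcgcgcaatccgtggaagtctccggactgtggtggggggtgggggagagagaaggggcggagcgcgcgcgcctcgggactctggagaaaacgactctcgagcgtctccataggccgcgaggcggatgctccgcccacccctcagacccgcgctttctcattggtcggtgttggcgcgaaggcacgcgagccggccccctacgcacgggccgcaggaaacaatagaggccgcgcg
The E2F-type letters occurred in 2 of the 14 windows of the 10 genes, those of *Phf19* and *Suz12*, and in 4.60% of all 32851 windows. The E-box occurred in 1 of the 14 windows, that of *Rbbp4*, and in 7.15% of all windows. The windows of *Aebp2* and *Ezh1* held neither. Thus 1 of the 3 genes with separate groups held a searched motif, as did 2 of the 7 others.

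*Phf19* encodes a Polycomb-like protein whose Tudor domain binds a methylated lysine elsewhere on the H3 tail. It stood at -1.86, -1.97, -1.78 and -1.999 in control replicates 1 to 4 and at -2.73, -2.72, -2.37 and -2.64 in *L3mbtl2*-KD replicates 1 to 4. Every knockdown array lay below every control array, the nearest being knockdown replicate 3 and control replicate 4. *Phf19* fell to 61.0% of the control level (log2 fold change -0.71, 95% interval -0.95 to -0.47, standard error 0.11, limma adjusted p = 0.00334), and with the slide as a block the adjusted p was 0.00259. Its change was -0.81 within slide 1 and -0.62 within slide 2. With normexp background correction, which shrinks the changes of dim probes, it was -0.42 (adjusted p = 0.00491).

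*Mtf2* is the other Polycomb-like gene of the set. Its brightest probe gave 3.46, 3.43, 3.24 and 3.15 in control replicates 1 to 4 and 3.61, 3.73, 3.20 and 3.08 in *L3mbtl2*-KD replicates 1 to 4. The 4 arrays of slide 1 were higher than the 4 of slide 2 in both groups, and the groups overlapped. A log2 fold change of 0.085 (95% interval -0.28 to 0.45) had a limma adjusted p of 0.755, with 0.23 within slide 1 and -0.055 within slide 2. A second, dim probe of *Mtf2* ranged from -4.85 to -3.76 in controls and from -4.61 to -2.01 in the knockdown, where replicate 1 was the high value. Its log2 fold change of 0.73 (95% interval -0.50 to 1.95) had a limma adjusted p of 0.385 and fell to 0.16 without *L3mbtl2*-KD replicate 1. Within each array, *Mtf2* minus *Phf19* was 5.02 to 5.40 in controls and 5.57 to 6.45 in the knockdown. This difference was 0.80 larger in *L3mbtl2*-KD ESCs, with no overlap and the smallest p that 4 against 4 samples can give (two-sided exact permutation test, p = 0.0286). Adjusted over the 3 pairs of related genes compared, it was 0.0857 and did not pass. With normexp the difference was 0.43 (adjusted p = 0.20) and with quantile normalization 0.66 (adjusted p = 0.129). With the mean of a gene's probes it was 1.12 (adjusted p = 0.0857).

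*Aebp2* encodes a zinc finger subunit that binds the core together with JARID2. Its brightest probe (A_55_P2165544) gave 0.86, 0.55, 0.22 and 0.23 in control replicates 1 to 4 and 0.12, -0.081, -0.50 and -0.60 in *L3mbtl2*-KD replicates 1 to 4. Slide 1 was higher than slide 2 in each group, and the lowest control on slide 2 still exceeded the highest knockdown array. *Aebp2* fell on this probe (log2 fold change -0.73, 95% interval -1.19 to -0.26, standard error 0.20, limma adjusted p = 0.0397), with -0.68 within slide 1 and -0.77 within slide 2. With a sample left out the change stayed between -0.85 and -0.60, but the call was kept in 1 of 8 cases. Without control replicate 1, 2, 3 or 4 the adjusted p was 0.0723, 0.0881, 0.0573 and 0.0529, and without *L3mbtl2*-KD replicate 2, 3 or 4 it was 0.0521, 0.1001 and 0.0969; only without *L3mbtl2*-KD replicate 1 (0.0294) did it pass. With the slide as a block it was 0.0021, without a filter on dim probes 0.091 and with the adjusted one-way test 0.0873.

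A second probe of *Aebp2* (A_55_P2165539), assigned to another RefSeq transcript of the gene, differed less between the groups. It gave -0.21, -0.17, -0.42 and -0.44 in control replicates 1 to 4 and -0.54, -0.24, -0.76 and -0.81 in *L3mbtl2*-KD replicates 1 to 4. The knockdown array was lower in 4 of 4 pairs of the same replicate number, but the groups overlapped. This probe did not pass (log2 fold change -0.28, 95% interval -0.60 to 0.039, limma adjusted p = 0.2004); the adjusted p was 0.0265 with the replicate number as a block and 0.0497 with the slide. The brightest probe minus this one was 0.63 to 1.07 in controls and 0.16 to 0.65 in the knockdown, 0.45 lower on average and lower in 4 of 4 pairs of the same number (-0.55 to -0.37). A two-sided exact permutation test of this difference, chosen after the values were seen, gave p = 0.0571.

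*Jarid2*, the partner of *Aebp2* in the complex, ranged from 2.02 to 2.29 in controls and from 2.07 to 2.33 in *L3mbtl2*-KD arrays. Its log2 fold change was 0.11 (95% interval -0.11 to 0.34, limma adjusted p = 0.464), higher in 4 of 4 pairs of the same number and within the spread between samples.

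*Ezh1*, the catalytic subunit that predominates in resting cells, lay at the threshold. Its brightest probe gave 2.61, 2.96, 2.87 and 2.60 in control replicates 1 to 4 and 2.15, 2.60, 2.36 and 2.18 in *L3mbtl2*-KD replicates 1 to 4. The groups met without overlapping, at *L3mbtl2*-KD replicate 2 and control replicate 4, and the knockdown array was lower in 4 of 4 pairs of the same number. A log2 fold change of -0.44 (standard error 0.13, 95% interval -0.74 to -0.13) had a limma adjusted p of 0.054, and 0.0517 with the slide as a block. It was -0.41 within slide 1 and -0.46 within slide 2. A second probe gave 0.90, 1.28, 1.21 and 0.96 in controls and 0.41, 0.79, 0.75 and 0.67 in the knockdown. Its log2 fold change was -0.43, and this probe passed (limma adjusted p = 0.0433). The remaining, dim probe was above background in 7 of 8 arrays and differed by -0.35 (95% interval -1.28 to 0.58, limma adjusted p = 0.594). With the replicate number as a block, limma gave an adjusted p of 0.00335 for the brightest probe, 0.0046 for the second and 0.0166 for the dim one, which was above background on 3 of 4 knockdown arrays and differed by -0.039 with normexp (adjusted p = 0.913 without the block). The brightest probe also passed with quantile normalization (0.0478), with an intensity trend (0.036) and without *L3mbtl2*-KD replicate 2 (0.0283). The second probe did not pass without control replicate 2, 3 or 4 (0.101, 0.116 and 0.0613) or without *L3mbtl2*-KD replicate 1, 2, 3 or 4 (0.0886, 0.0515, 0.0726 and 0.0893), nor without a filter on dim probes (0.1008) or with the adjusted one-way test (0.0709).

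*Ezh2*, the catalytic subunit of dividing cells, varied little. It gave 3.09, 3.01, 2.90 and 2.97 in control replicates 1 to 4 and 2.95, 2.98, 2.83 and 2.84 in *L3mbtl2*-KD replicates 1 to 4. The groups overlapped, although the knockdown array was lower in 4 of 4 pairs. *Ezh2* had a log2 fold change of -0.093 (95% interval -0.28 to 0.091, limma adjusted p = 0.466). *Ezh2* minus *Ezh1* within each array was 0.027 to 0.48 in controls and 0.37 to 0.80 in the knockdown, 0.34 larger on average. The groups overlapped, and the difference did not pass (two-sided exact permutation p = 0.114, adjusted over the 3 pairs 0.171). By replicate number it was larger in the knockdown in 4 of 4 pairs, by 0.30 to 0.44, and an exact paired test of 4 pairs cannot give a p under 0.125.

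The remaining core genes had intervals that included 0. *Suz12*, needed for the stability of the complex, ranged from 2.50 to 2.67 in controls and from 2.44 to 2.68 in *L3mbtl2*-KD arrays, with a log2 fold change of -0.0072 (95% interval -0.20 to 0.19, limma adjusted p = 0.965). *Eed*, the subunit that reads the mark, stood at 4.60 in control replicate 1 and at 4.06 to 4.11 in the other 3 controls, and at 3.997 to 4.25 in the knockdown. Its log2 fold change was -0.12 (95% interval -0.42 to 0.19, limma adjusted p = 0.594) and 0.012 without control replicate 1. *Rbbp4* ranged from 4.85 to 5.09 in controls and from 4.99 to 5.14 in the knockdown, with log2 fold changes of 0.088 and 0.12 on its 2 probes (limma adjusted p = 0.508 and 0.457). *Rbbp7* ranged from 4.77 to 5.24 and from 4.89 to 4.98, with -0.053 and -0.043 on its 2 probes (limma adjusted p = 0.772 and 0.836). *Rbbp4* minus *Rbbp7*, the genes of the subunits shared with other chromatin complexes, was -0.29 to 0.11 in controls and 0.042 to 0.17 in the knockdown (two-sided exact permutation p = 0.257, adjusted 0.257), larger in the knockdown in 4 of 4 pairs, by 0.019 to 0.34.

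**Figure D2:**
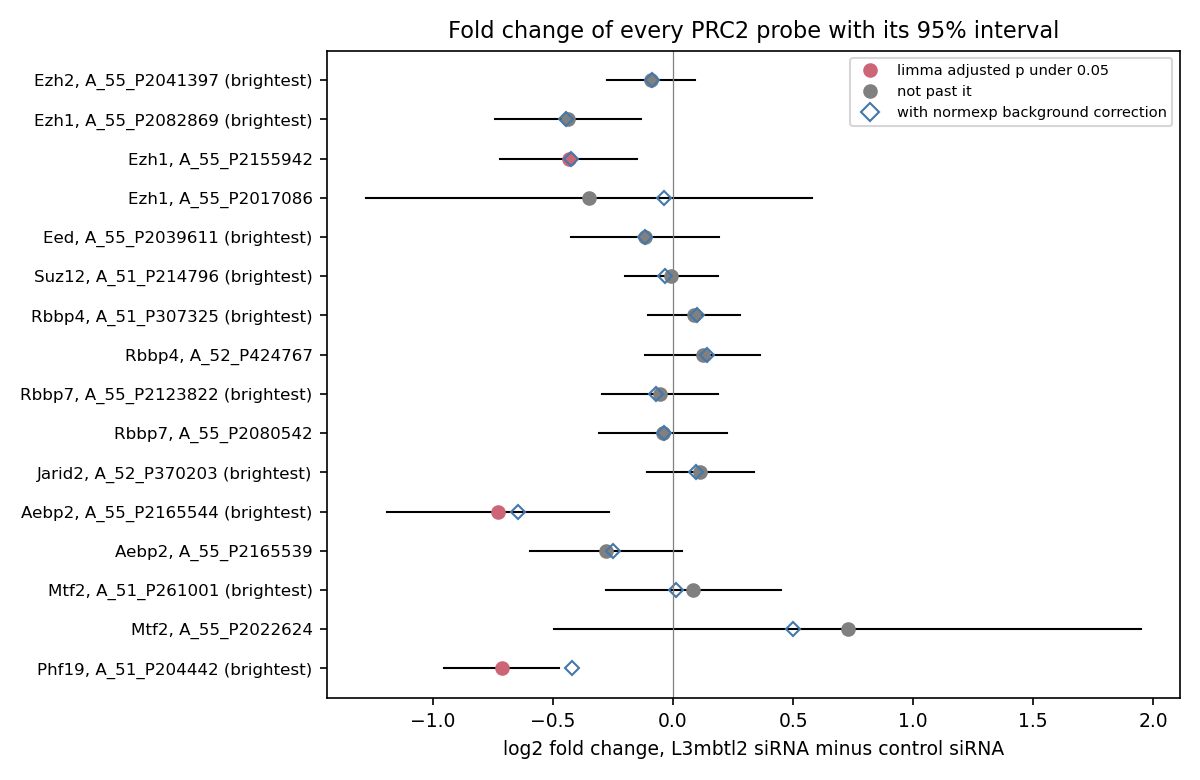
Circles are log2 fold changes (*L3mbtl2* siRNA minus control siRNA, 4 arrays each) of all 16 PRC2 probes with 95% intervals from limma, red where the adjusted p was under 0.05, and open diamonds are the values with normexp background correction. The 3 red circles are a probe each of *Ezh1* (-0.43), *Aebp2* (-0.73) and *Phf19* (-0.71); normexp moved *Phf19* to -0.42 and the dim probe of *Ezh1* to -0.039.

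**Figure D3:**
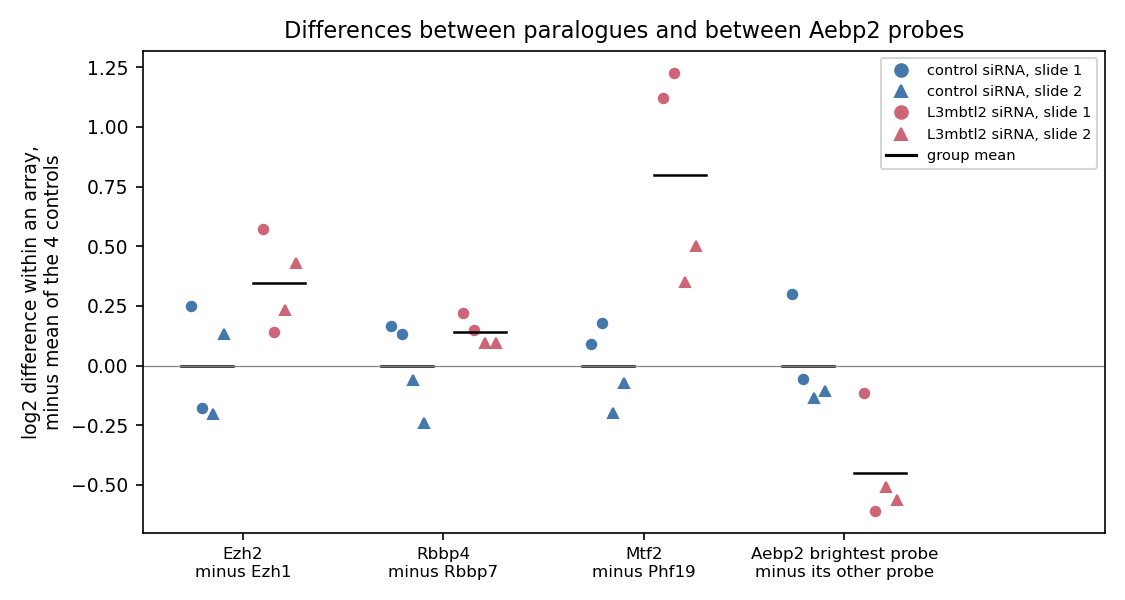
Each point is the difference of 2 log2 values within 1 array, minus the mean of the 4 controls, for the 3 pairs of related genes and for both probes of *Aebp2*; colours and symbols separate siRNA and slide, and black lines are group means. *Mtf2* minus *Phf19* is the one comparison without overlap, with group means 0.80 apart.

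Factors that join or oppose PRC2 outside the core set were followed by a list of 7 genes. On their brightest probes 1 rose and 0 fell in limma, with a median log2 fold change of 0.13; 2 rose with normexp, with an intensity trend, with the slide as a block and without control replicate 4. The gene that rose was *Ezhip*, whose protein inhibits PRC2. It stood at 1.47, 0.84, 1.05 and 1.11 in control replicates 1 to 4 and at 2.95, 3.02 and 3.30 in *L3mbtl2*-KD replicates 2 to 4, the spot of replicate 1 being an outlier of the scanner. All 3 knockdown values lay above all controls (log2 fold change 1.97, limma adjusted p = 0.000553). *Lcorl*, which encodes a partner of the Polycomb-like form, had the largest change among those whose brightest probe did not pass (-0.54, adjusted p = 0.1699, and -0.32 with normexp), while its other probe passed without overlap of the groups (-0.49, adjusted p = 0.0259). With the replicate number as a block 3 rose and 2 fell, *Lcorl* among the latter (adjusted p = 0.0141). This block called 3027 of all 13648 genes higher and 3252 lower, a background for its counts in each list. Of the 2 demethylases that remove the mark, *Kdm6b* was 1.24 to 1.46 in controls and 0.67 to 0.97 in the knockdown and fell by 0.48 (standard error 0.096, limma adjusted p = 0.0121). *Kdm6a* differed by 0.11 (adjusted p = 0.537).

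RBBP4 and RBBP7 are shared with NuRD, a deacetylase and remodelling complex, and with CAF-1, Sin3, HAT1, MuvB and NURF. Of 11 NuRD genes, *Gatad2a* (log2 fold change 0.70, limma adjusted p = 0.00685) and *Hdac2* (0.36, adjusted p = 0.0131) rose and 0 fell, with a median of 0.079. The other probes of *Gatad2a* gave 0.30 (adjusted p = 0.0482) and 0.12 (adjusted p = 0.342), and the mean of its probes 0.37 (adjusted p = 0.0263). *Hdac1* had a value of 0.27 (adjusted p = 0.111, and 0.0231 with the replicate number as a block, where 1 gene fell). Of 13 genes of the other RBBP4 or RBBP7 complexes, 0 passed in limma on the brightest probe, 2 were higher and 1 lower at an unadjusted p under 0.05, and the one-way test with adjustment called 1 higher and 0 lower. A second, dimmer probe of *Sin3b* was above background on 1 of 4 control and 4 of 4 knockdown arrays and higher in the latter without overlap, and 1 gene was higher with the mean of a gene's probes and without control replicate 1. The median was 0.085, and the largest change on a brightest probe was that of *Smarca1*, the NURF motor (-0.88, adjusted p = 0.0899, and -0.50 with normexp, adjusted p = 0.1395). With the replicate block 1 gene was higher and 3 lower, *Smarca1* with an adjusted p of 0.00384.

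A list of 20 typical Polycomb targets, genes that carry the PRC2 mark in many ESC lines, had 17 that were tested. In limma 5 fell and 1 rose, and the median log2 fold change was -0.24. Among probes above background on 8 of 8 arrays 2 fell and the median was -0.14, and with normexp 4 fell and it was -0.12. Among those that fell were *Sox17* (-2.07, adjusted p = 0.0059), *Foxa2*, *Pax3* (-1.23, adjusted p = 0.0187) and *Gata4* (-0.92, adjusted p = 0.00516). *Foxa2* was not well above background on any knockdown array, while *Pax3* was above it on 2 of 4 and *Sox17* on 3 of 4. *Foxa2* was at least 2.45-fold lower, a bound that holds without normexp only and in which each knockdown array entered with the dimmest spot that its scanner still told from background, or with the probe itself where that was brighter; with normexp its log2 fold change was -0.41 and did not pass (adjusted p = 0.0763). With normexp *Sox17* had -1.10 (adjusted p = 0.000657) and *Pax3* -0.40 (adjusted p = 0.0485). *Pax3* did not pass without control replicate 3 (0.0561) or with the adjusted one-way test (0.0557). *Msx1* rose (0.46, adjusted p = 0.0176), though not without control replicate 3 (0.0534) or *L3mbtl2*-KD replicate 3 (0.0523). *Cdx2*, above background on 3 of 4 knockdown arrays, was the largest change that did not pass (-0.81, adjusted p = 0.306, and -0.25 with normexp, adjusted p = 0.421). *Isl1* and *Tbx5* were not well above background on any array, and *Pax6* was above it on 3 of 4 arrays of each group, so these 3 were not tested. With the replicate block 8 fell, *Cdx2* among them (adjusted p = 0.043), and 2 rose. *Gata4* and *Sox17* are also in the list of primitive endoderm markers, of which 8 of 9 fell and *Gata6* did not pass (0.064, adjusted p = 0.883). Among 12 proliferation genes *Mcm3*, part of the replicative helicase, fell (-0.38, adjusted p = 0.0351) and 0 rose, with a median of 0.046. *Mcm3* did not pass in 10 of 21 alternatives, among them no filter on dim probes (0.0868) and the omission of any sample but control replicate 2 (0.0513 to 0.0863). *Mki67* had -0.26 (adjusted p = 0.0851, and 0.0166 with the replicate block, where 2 genes were lower and 2 higher). It also passed with normexp (-0.28, adjusted p = 0.0414), where 2 genes were lower and 0 higher.

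**Figure D4:**
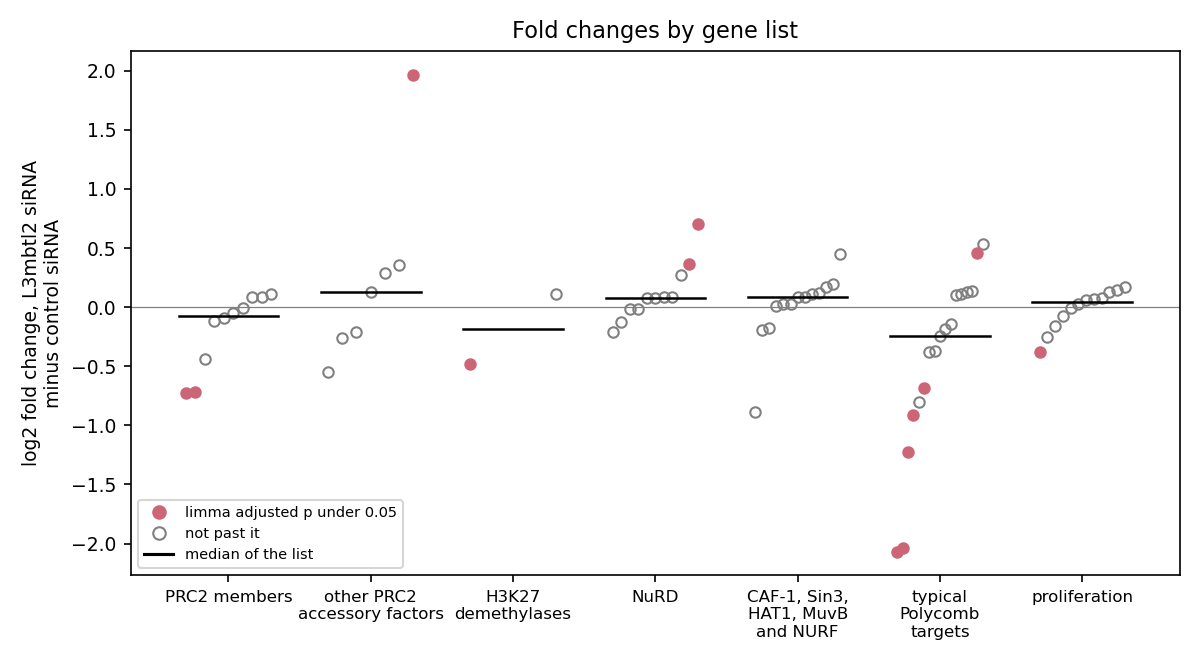
Each point is 1 gene on its brightest probe, as its log2 fold change (*L3mbtl2* siRNA minus control siRNA, 4 arrays each), red where the limma adjusted p was under 0.05, and black lines are medians of the lists. The PRC2 genes have a median of -0.073, and *Ezhip* stands at 1.97 among the other PRC2 accessory factors.

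Markers of other cells moved between the groups as well. In bulk RNA, fewer cells of a type and less RNA per cell cannot be told apart. Of 12 feeder fibroblast markers 10 were tested, 6 fell and 1 rose, with a median log2 fold change of -1.54, which was -1.13 with normexp and -0.72 (4 fell) on probes above background on 8 of 8 arrays. The 1 that rose was *Loxl1* (1.01, adjusted p = 0.000968, with 0.88, adjusted p = 0.0115, on its other probe). *Dcn* and *Col3a1* were not well above background on any knockdown array and were at least 12.1-fold and 7.81-fold lower by the same bound, with log2 fold changes of -1.88 and -1.55 under normexp, and *Col1a2* had -2.81 (adjusted p = 0.00439). *Lum* and *Postn* were not well above background on any array. The summed level of the list, in units of the 75th percentile and weighted towards bright probes, was 5.98, 13.3, 11.9 and 14.9 in control replicates 1 to 4 and 5.65, 5.72, 6.42 and 6.47 in *L3mbtl2*-KD replicates 1 to 4. *Tagln*, the gene of the list with the brightest probe, was 1.73 in control replicate 1 and 2.85 to 3.04 in the other controls, against 1.91 to 2.18 in the knockdown. On each of the 6 markers that fell, control replicate 1 still lay above every knockdown array, as for *Col1a2* (-0.96 against -3.27 to -1.86). On the 3 that did not pass, *Tagln* among them, and on the 1 that rose, it lay below every knockdown array. Among the tested markers, this control was the lowest of the 4 controls except on *Thy1* (-1.06) and *Loxl1* (-1.39). On *Col1a2* it had -0.96, against 0.32 to 0.90 in the other controls. Control replicate 1 had *Phf19* at -1.86, *Aebp2* at 0.86 and *Ezh1* at 2.61. It is 1 array, and a link between feeder content and these values was not tested.

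Of 9 primitive endoderm markers 8 fell and 0 rose, with a median of -1.87, which was -0.95 with normexp and -0.92 (6 fell) on probes above background on 8 of 8 arrays. *Dab2* was lower (-2.53, and -0.95 with normexp). It was above background on 1 of 4 knockdown arrays, so the size of its change is not exact. The others included *Lama1* (-2.18, adjusted p = 0.00063) and *Col4a2* (-2.13, adjusted p = 0.000891), and *Sparc*, with the brightest probe, had -0.40 (adjusted p = 0.049). The other probe of *Sparc* gave -0.46 (adjusted p = 0.0389), without overlap of the groups. On the brightest probe the call of *Sparc* was lost in 11 of 21 alternatives, among them no filter on dim probes (0.112) and the omission of any sample but *L3mbtl2*-KD replicate 2 (0.0518 to 0.118). Their summed level was 106 to 122 in controls and 66.7 to 94.3 in the knockdown. Of 7 two-cell-like markers with a probe 5 rose and 0 fell, with a median of 1.82, among them *Usp17la* (2.53, adjusted p = 0.00209, with 0.28, adjusted p = 0.328, on its other probe and 1.41 for the mean of both), *Zscan4c* (2.18, adjusted p = 0.00545) and *Tcstv1* (2.12, adjusted p = 0.00908). The adjusted one-way test called 3 of the 7 markers higher and 0 lower. Their summed level was 81.7 to 121 in controls and 93.1 to 138 in the knockdown, overlapping between the groups and higher in the knockdown in 4 of 4 pairs of the same number, with *Sp110* the gene with the brightest probe (-0.023, adjusted p = 0.942). The other probes of *Sp110* rose (2.42, adjusted p = 0.00126, and 1.73, adjusted p = 0.00954), as did the mean of its probes (1.38, adjusted p = 0.0074). Of 4 late germ cell markers 3 rose, *Ddx4* with *Dazl* (1.61, adjusted p = 0.00394) and the one with the brightest probe, *Stra8* (1.34, adjusted p = 0.00316), with a median of 1.47 and a summed level of 26.9 to 47.1 in controls and 78.3 to 110.0 in the knockdown. *Sycp3* did not pass (-0.11, adjusted p = 0.629). The knockdown cells were sorted on the reporter of *Ddx4*, so its rise is no separate evidence, and *Ddx4* enters the median and the sum.

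Markers of ESCs were present in both groups. Of 10, *Klf4* fell (-0.70, adjusted p = 0.0274) and 0 rose, with a median of -0.20, and at an unadjusted p under 0.05 4 were lower and 0 higher. *Klf4* did not pass in 7 of 21 alternatives, among them the omission of control replicate 3 (0.0692) and of *L3mbtl2*-KD replicate 3 (0.068) or 4 (0.0709). *Nanog* (-1.32, adjusted p = 0.0962, and -0.69 with normexp), *Fgf4* (-0.55, adjusted p = 0.0685) and the one with the brightest probe, *Dppa5a* (0.17, adjusted p = 0.2985), did not pass. With the replicate block 1 rose and 3 fell, with adjusted p of 0.0146 for *Fgf4* and 0.0316 for *Dppa5a*. The summed level was 325 to 348 in controls and 312 to 353 in the knockdown. Of 6 trophectoderm markers tested 0 passed in limma and 1 was lower at an unadjusted p under 0.05, with a median of -0.31, and the one-way test with adjustment called 0. *Elf5* was not well above background on any array, *Krt8* had -0.81 (adjusted p = 0.145), *Krt18* -0.38 (0.321), *Cdx2* the value given above, and *Tfap2c*, with the brightest probe, -0.024 (0.9595). The replicate block called 2 lower, with an adjusted p of 0.0219 for *Krt8*. The summed level was 9.15 to 15.8 in controls and 7.88 to 13.7 in the knockdown, overlapping and lower in 4 of 4 pairs. The part of these other cell types in the values of *Phf19*, *Aebp2* and *Ezh1* was not tested.

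**Figure D5:**
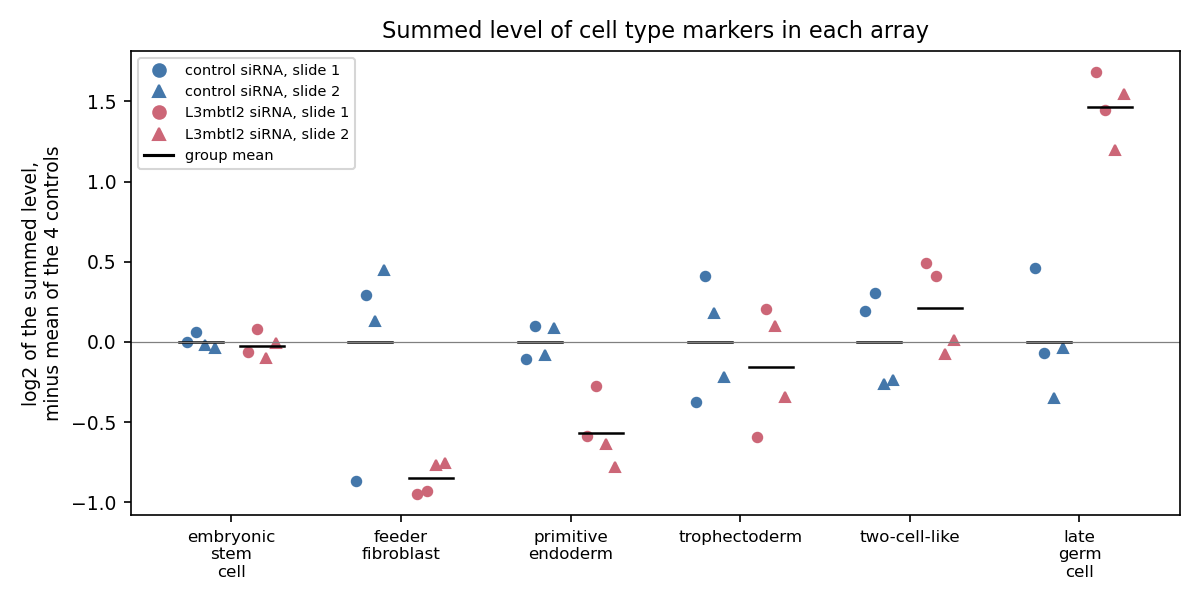
Each point is 1 array, as the log2 of the summed level of a marker list minus the mean of the 4 controls; blue marks control siRNA, red *L3mbtl2* siRNA, circles slide 1, triangles slide 2, and black lines group means. Late germ cell markers are higher and primitive endoderm markers lower in all *L3mbtl2*-KD arrays. For feeder fibroblast markers the sum of control replicate 1 (5.98) lies among the *L3mbtl2*-KD arrays (5.65 to 6.47). On each of the 6 feeder markers that fell, this control lay above every *L3mbtl2*-KD array.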

How the data were processed

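The authors deposited, for each of 8 single-colour Agilent arrays (43020 spots), spot intensities already corrected for background by Feature Extraction, with flags that mark spots above background and outliers, and a table of log2 values (column medians -0.06 to 0.08). Set against the spot intensities, the table matched log2 intensities shifted to the 75th percentile and centred on each probe's median (lowest correlation of an array across probes 0.999). Its alternative use rests on that match. No spot was saturated, and 59.5 to 66.6% of spots per array were well above background. The methods call the samples of a group biological replicates and do not say whether each was a culture of its own, so p-values measure the spread between these samples, part of which may be technical.

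Each array's deposited intensity values were put on a log2 scale and shifted so that the 75th percentile became 0; control and outlier spots were left out, and spots of a probe were averaged. RefSeq accessions (assembly GRCm38.p6) gave a symbol to 26055 of the 39429 probes, for 19751 genes. The 23525 probes that the scanner told from background on all 4 arrays of either group entered limma 3.58.1 (lmFit, eBayes; R 4.3.3), and p-values were adjusted over all of these by Benjamini-Hochberg. A gene was read on the probe with the highest mean. Every adjusted p without another source is from limma. Exact permutation tests used SciPy 1.17.1. The scripts were tested on simulated data.

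The members, the gene lists and the rule for named genes were chosen with earlier results of these data known. The rule took all members with every probe, *L3mbtl2* and *Ddx4*, of each pathway list all genes that passed if 6 or fewer, otherwise the 4 with the largest change, with the largest change that did not pass, and of each marker list the gene with the brightest probe and the 3 largest changes. *Zscan4d* had no named probe, and a gene that the rule takes is not reported here.

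Same-numbered samples deviated together from their group means (correlation across probes 0.38 to 0.58, against -0.44 to 0.25 for different numbers), so the replicate numbers, taken from the labels, pair the samples. Controls lay at positions 1 and 3 of a slide and *L3mbtl2*-KD samples at 2 and 4, so position and group cannot be told apart. Alternatives were normexp background correction (offset 50, on median spot intensities, in place of the means planned), quantile normalization, use of the log2 table, keeping all dim probes or only the 21944 probes seen on 8 of 8 arrays, a block for slide or for replicate number, each slide alone, eBayes with a trend, a one-way test, averaging the probes of a gene, a 1.5-fold cut-off and omission of each sample in turn.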

Additional observations from a re-analysis of the deposited data

Results flagged for a closer look

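*Eed* in control replicate 1 had a log2 value of 4.60, far from the other 3 controls (4.06 to 4.11). *Rbbp7* in *L3mbtl2*-KD replicate 2 had a log2 value of 4.89, while the other 3 knockdown arrays lay within 4.97 to 4.98. These are 2 of 44 groups of 4 arrays examined for a sample far from the others, and chance gives about 1 in 20.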

How the results depend on the processing

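In the paired fit, with the replicate number as a block, 3 PRC2 genes were lower (*Phf19*, *Aebp2* and *Ezh1*) and 0 higher, and 3027 of all genes tested were higher and 3252 lower, beside 1276 and 1469 without it; among the PRC2 probes the block changed no call other than those given with *Ezh1* and *Aebp2*. The count of PRC2 genes lower, 2, was 1 with no filter on dim probes, with the adjusted one-way test, with the mean of a gene's probes (*Aebp2* then -0.50, adjusted p = 0.0626) and within slide 2, 0 within slide 1, 1 to 2 when a sample was left out, and 3, with *Ezh1*, under quantile normalization and with an intensity trend. The 1 gene within slide 2 was *Aebp2*. *Phf19* passed without each sample (-0.80 to -0.67) and under all alternatives except within a slide (adjusted p 0.108 in slide 1 and 0.0722 in slide 2). The count over 2-fold, 0, became 2 at 1.5-fold, beside 1714 of 13653 genes. *L3mbtl2* within slide 1 was -1.40 (adjusted p = 0.0982), where no gene passed with 2 arrays a group.

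Apart from the mean of the *Sp110* probes, signs turned only for values near 0 or on dim probes: *Mtf2* within slide 2 (-0.055, dim probe -0.22) and without a sample (-0.022 to 0.19), *Rbbp7* within slide 1 (0.058, other probe 0.011) and without a sample (-0.13 to 0.024, other probe -0.099 to 0.046), *Eed* (-0.17 to 0.012) and *Suz12* (-0.051 to 0.033) without a sample, *Tfap2c* within slide 2 (0.093) and without a sample (-0.16 to 0.16), and *Sp110* with normexp (0.0052), quantile normalization (0.022), within slide 2 (0.053) and without a sample (-0.11 to 0.080). The mean of the *Sp110* probes was 1.38, since its other probes, at 2.42 and 1.73, enter it beside the brightest. The median of the proliferation list turned as well, within slide 1 (-0.023) and without a sample (-0.0044 to 0.087). Apart from the mean of the *Sp110* probes, the cause of these turns was not tested. The member median stayed between -0.11 and -0.040, and the differences of the 3 pairs kept their sign and did not pass where they were tested. Signal over background limits the dim probes of *Ezh1* and *Mtf2*, and 4 arrays a group limit small changes: an interval that includes 0 does not show that a gene did not change.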
